A study of Mus musculus with 8 samples.

Results

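The data were read for 10 named genes of arginine, citrulline and polyamine metabolism: Otc, Cps1, Ass1, Asl, Oat, Arg2, Odc1, Srm, Sat1 and Oaz1. They were taken by symbol, as every probe set of the array whose only annotated gene is one of them; the 10 genes were named with earlier results of these data known. Of these 10, 9 were measured in this way, by 11 probe sets among 45037, and the analysis covered 17097 genes in all. Oaz1, the antizyme that binds ornithine decarboxylase and sends it for degradation, was not analysed here.

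The arrays hold RNA of ileal tissue, the last segment of the small intestine, from male mice about 2 months old on a C57BL/6 background, killed after a 4 h fast under ketamine-xylazine anaesthesia. The wild type group had 4 samples and the Slc51a knockout group 4, each numbered as a biological replicate, and no other allele or agent is given for either group. Slc51a encodes a subunit of the basolateral transporter through which ileal enterocytes release bile acids to the blood, and the comparison asks how ileal transcripts differ without it. The cell types in which the gene was inactivated, and whether mice were littermates, are not given in the sources used here. Signals are on the log2 scale after normalisation, so that 1 unit stands for a 2-fold change, and each difference is the knockout mean minus the wild type mean, with its standard error (SE). A gene passed where its adjusted p from limma, over all genes, was below 0.05. These p-values measure the spread among the samples, which the labels call biological replicates.

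Enterocytes of the small intestine are a main source of the body's citrulline. In their mitochondria, glutamine and proline carbon is turned into ornithine, which Otc joins to the carbamoyl phosphate made by Cps1. Citrulline leaves the gut and is turned into arginine by Ass1 and Asl, largely in the kidney. Arginase returns arginine to ornithine, and ornithine decarboxylase turns ornithine into putrescine, the first of the polyamines. Spermidine and spermine follow by addition of aminopropyl groups from decarboxylated S-adenosylmethionine, and these small cations are needed by dividing cells, the renewing intestinal epithelium among them.

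Slc51a was read first as a check of the labels. Its wild type mean was 11.36 ± 0.05 (SD, n = 4, as for every mean ± SD here), and the 4 knockout samples lay at 4.50 to 4.68, near the array-wide median signal of 4.58 over all probe sets. Where the probe set lies relative to the deleted part of the gene is not given in the sources used here. The ileal genes Fabp6, Slc10a2 and Slc51b lay at 13.11, 11.42 and 11.48 in wild type, so the defining transcripts of the labelled tissue were present. Array medians ran from 4.56 to 4.60. Wild type replicate 2, knockout replicate 3 and knockout replicate 4 had the lowest hybridization controls, at 8.38, 8.30 and 8.43 against 8.53 to 8.74 on the other arrays. The signal at the 3' end of Gapdh minus that at its 5' end, a sign of RNA integrity, was 0.18 to 0.34 in wild type and 0.06 to 0.21 in the knockout. For actin it was 0.38 to 0.47 in wild type and 0.42 to 0.47 in the knockout. Fits without the 3 arrays of lowest hybridization controls, or with those controls as a covariate, are given below. The part of the 3' to 5' differences in the results was not tested.

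In the knockout ileum 6 of the 9 measured genes rose and 0 fell, and 3 did not pass. Odc1 rose by 0.47 on the log2 scale and Arg2 by 0.45, followed by Asl (0.28), Otc (0.27), Cps1 (0.23) and Ass1 (0.20), whereas Oat, Srm and Sat1 did not pass. Ass1 was below the array-wide median, and its place in the count depends on the probe set chosen. The other Ass1 probe set, slightly brighter in wild type, did not pass (0.03, adjusted p = 0.731). Over all genes tested, 30.0% passed, with 17.1% higher and 12.9% lower. The median difference of the 9 genes was 0.23, against 0.01 over all genes. The groups did not overlap for the same 6 genes, all higher in the knockout. Groups stood apart in 30.7% of all genes, and in 18.0% with the knockout higher. Without the 3 arrays with the lowest controls, which leaves 3 wild type and 2 knockout samples, 3 of the 9 genes passed (Otc, Arg2 and Odc1), against 20.4% of all genes. With cyclic loess normalisation 5 genes passed as higher (Cps1 no longer) and 2 as lower (Oat and Sat1). The share of all genes that passed with that normalisation is not given here. The changes were small beside the largest in this tissue: 8.19% of all genes had a larger difference in either direction than Odc1, and 28.5% a larger one than Ass1.

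**Figure D1:**
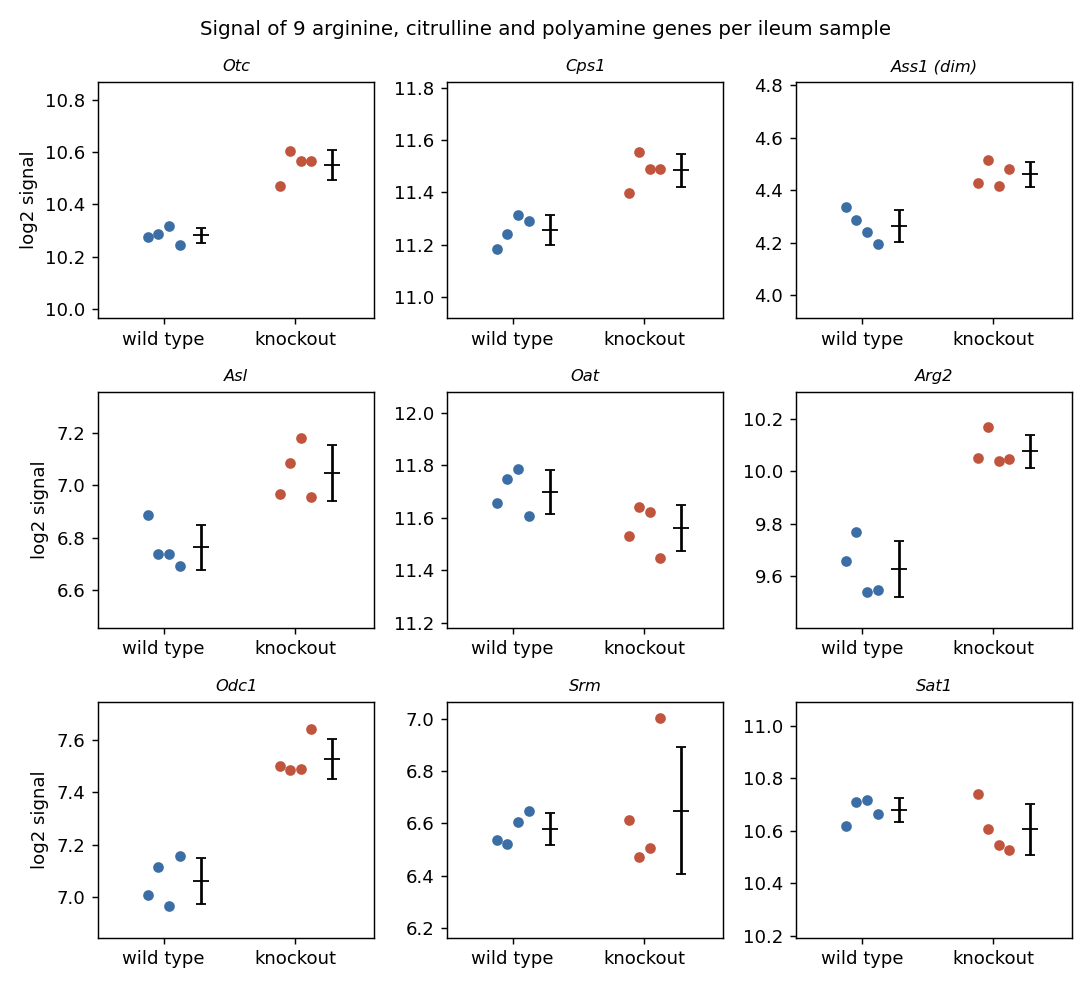
Log2 signal of each of the 9 measured genes (vertical axis, with the same span of 0.9 in every panel) in the 4 wild type (blue) and 4 knockout (red) samples, with points for samples and bars for the group mean ± SD. The groups are apart for Otc, Cps1, Ass1, Asl, Arg2 and Odc1 and overlap for Oat, Srm and Sat1.

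Otc and Cps1, the mitochondrial enzymes that make citrulline and the carbamoyl phosphate it needs, were higher in the knockout. Cps1 did not pass under every alternative setting, as given below. Otc, ornithine transcarbamylase (probe set 1420525_PM_a_at), was at 10.28, 10.29, 10.32 and 10.25 in wild type and at 10.47, 10.60, 10.56 and 10.56 in the knockout. Every knockout sample lay above every wild type sample, and Otc rose by 0.27 (SE 0.05, adjusted p = 0.00105), or 1.21-fold. The Otc difference was 0.18 with cyclic loess normalisation (adjusted p = 0.0156), and its range over all alternatives was 0.18 to 0.30. A second Otc probe set (1425540_PM_at) was dim, below the array-wide median, with means of 3.99 and 4.12, and did not pass (difference 0.13, adjusted p = 0.180).

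Cps1, the mitochondrial carbamoyl phosphate synthetase (1455540_PM_at), read 11.18, 11.24, 11.31 and 11.29 in wild type against 11.40, 11.56, 11.49 and 11.49 in the knockout. These groups also stood apart, and Cps1 rose by 0.23 (SE 0.05, adjusted p = 0.00575), or 1.17-fold. Its call was lost with cyclic loess normalisation (0.13, adjusted p = 0.0981) and without the 3 arrays (0.22, adjusted p = 0.0823). Nags, which makes the N-acetylglutamate that Cps1 needs to be active, rose by 0.15 (SE 0.05, adjusted p = 0.0314). That call is a marginal one: it was lost in 12 of 20 alternatives, among them each fit without wild type replicate 1 (adjusted p = 0.0713), 2 (0.0525), 3 (0.0711) or 4 (0.0650) and without knockout replicate 1 (0.0628) or 4 (0.0765).

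Oat, ornithine aminotransferase, stands between proline or glutamate carbon and ornithine. Its signal (1416452_PM_at) was 11.65, 11.75, 11.79 and 11.61 in wild type and 11.53, 11.64, 11.62 and 11.45 in the knockout. The groups overlapped, and the difference of -0.14 (95% interval -0.27 to -0.01) did not pass (adjusted p = 0.113). Oat passed as lower with cyclic loess normalisation (-0.24, adjusted p = 0.0137) and with the trended and robust prior (-0.14, adjusted p = 0.0420), and its sign was negative in all 20 alternatives. The other entry enzyme, Aldh18a1, which makes glutamate semialdehyde from glutamate, was at 6.01 ± 0.13 and 6.08 ± 0.23 (95% interval of the difference -0.17 to 0.31, adjusted p = 0.693). The mitochondrial ornithine and citrulline exchanger Slc25a15 was at 10.61 ± 0.07 and 10.49 ± 0.06 (difference -0.11, adjusted p = 0.130), and passed as lower with cyclic loess normalisation (-0.21, adjusted p = 0.0106). A dimmer Slc25a15 probe set ran the other way, from 6.72 to 7.02 (0.30, adjusted p = 0.0144), so the direction of this gene is not settled.

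Around this step, the 10 measured genes that supply glutamate, proline and aspartate carbon moved in both directions. Of them 3 were higher, 2 lower and 5 did not pass, where 17.1% of all genes were higher and 12.9% lower. Got2, the mitochondrial aspartate aminotransferase, rose by 0.42 (SE 0.05, adjusted p = 5.99e-05). Slc25a12, which carries aspartate out of the mitochondrion in exchange for glutamate, rose by 0.43 (SE 0.05), or by 0.24 with the mean of its probe sets. Gpt2, an alanine aminotransferase, rose by 0.16 (adjusted p = 0.0307), a call lost in 6 of 20 alternatives, 3 of them without wild type replicate 4 (0.13, adjusted p = 0.0867), knockout replicate 1 (adjusted p = 0.0586) and knockout replicate 3 (adjusted p = 0.0821). The mitochondrial glutamate carrier Slc25a22 fell by 0.46 (SE 0.06, adjusted p = 0.000270). Prodh, the first enzyme of proline breakdown, fell by 0.26 (SE 0.08, adjusted p = 0.0232) with overlapping groups. Prodh no longer passed once wild type replicate 1 (adjusted p = 0.0601), wild type replicate 2 (0.0679) or knockout replicate 1 (0.0581) was left out.

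The enzymes that turn citrulline into arginine differed in how well they could be measured. Asl, argininosuccinate lyase (1448350_PM_at), was at 6.89, 6.74, 6.74 and 6.69 in wild type and at 6.97, 7.09, 7.18 and 6.96 in the knockout. The lowest knockout sample was just above the highest wild type sample, and Asl rose by 0.28 (SE 0.06, adjusted p = 0.00629), or 1.22-fold. Without the 3 arrays the difference was 0.25 (adjusted p = 0.0598).

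Ass1, argininosuccinate synthetase, precedes Asl. The probe set with the higher mean over the 8 arrays (1416239_PM_at) read 4.33, 4.29, 4.24 and 4.19 in wild type and 4.43, 4.52, 4.42 and 4.48 in the knockout, all below the array-wide median. Ass1 passed (0.20, SE 0.05, adjusted p = 0.00969) and its groups stood apart, but a signal this low does not show that the tissue expresses the gene. Another Ass1 probe set (1459937_PM_at), with means of 4.27 and 4.31, did not pass (0.03, adjusted p = 0.731), and the mean of both gave 0.11 (adjusted p = 0.0444). In wild type that other probe set was the slightly brighter one, so the first stands for Ass1 through its knockout values, and the count of 6 rises depends on that choice or on the mean of both. Without the 3 arrays the call was lost (0.22, adjusted p = 0.0605). Counted as probe sets, 6 of 11 passed, all higher, where 21.6% of all probe sets passed and 23.8% had groups that stood apart.

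Arg2, the mitochondrial arginase, splits arginine into ornithine and urea. Its signal (1418847_PM_at) was 9.66, 9.77, 9.54 and 9.55 in wild type and 10.05, 10.17, 10.04 and 10.05 in the knockout. All knockout samples were above all wild type samples by a wide margin, and the rise was 0.45 (SE 0.06, adjusted p = 0.000246), or 1.36-fold. It passed in all 20 alternatives, with differences of 0.36 to 0.53. Arg1, the cytosolic arginase of liver and of some macrophages, was at 3.33 ± 0.05 and 3.41 ± 0.04, again below the array-wide median, and did not pass (95% interval of the difference -0.02 to 0.18, adjusted p = 0.252). Inducible nitric oxide synthase, Nos2, which competes for arginine, was at 5.12 ± 0.13 and 5.12 ± 0.12 (95% interval of the difference -0.17 to 0.16).

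Ddah1, which breaks down asymmetric dimethylarginine to citrulline and so removes an inhibitor of nitric oxide synthases, showed the largest rise among the 61 pathway genes measured, members included. It was at 9.19, 9.10, 8.94 and 9.07 in wild type and at 9.9996, 9.79, 9.88 and 10.04 in the knockout, a rise of 0.86 (SE 0.07, adjusted p = 1.14e-05), or 1.81-fold. Its other 4 probe sets also passed as higher, by 0.34 to 1.06. Of the 8 other measured genes listed under arginine synthesis and use, Azin2 included, Ddah1 was the 1 that passed. Over all genes 30.0% passed.

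Odc1, ornithine decarboxylase, is the rate-limiting enzyme of polyamine synthesis and had the largest difference of the 9 genes. Its signal (1427364_PM_a_at) was 7.01, 7.11, 6.97 and 7.16 in wild type and 7.50, 7.48, 7.49 and 7.64 in the knockout. The groups were well apart, and Odc1 rose by 0.47 (SE 0.06, adjusted p = 0.000153), or 1.38-fold. It passed in all 20 alternatives, with differences of 0.42 to 0.50.

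The next enzyme, spermidine synthase (Srm, 1421260_PM_a_at), was at 6.54, 6.52, 6.61 and 6.65 in wild type and 6.61, 6.47, 6.51 and 7.001 in the knockout. The other 3 knockout values lay within or just below the wild type range and that of knockout replicate 4 stood above all others. The difference was 0.07 (95% interval -0.15 to 0.29, adjusted p = 0.674), and without knockout replicate 4 it was -0.05 (adjusted p = 0.607). Sms, spermine synthase, rose by 0.25 (SE 0.05, adjusted p = 0.00370) with groups at 7.51 to 7.69 and 7.80 to 7.90. Its other 2 probe sets did not pass (0.04 and 0.04), and the mean of its probe sets did not pass either (0.11, adjusted p = 0.0633). Amd1, whose product supplies the aminopropyl donor, was not analysed here.

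Sat1 acetylates spermidine and spermine and opens their breakdown and export. Its signal (1420502_PM_at) was 10.62, 10.71, 10.72 and 10.67 in wild type and 10.74, 10.61, 10.54 and 10.53 in the knockout. Knockout replicate 1 was the highest of the 8 samples and the other knockout samples were the lowest, so the groups overlapped (difference -0.07, 95% interval -0.20 to 0.05, adjusted p = 0.386). Sat1 passed as lower with cyclic loess normalisation (-0.17, adjusted p = 0.0437) and was at 0.01 without the 3 arrays.

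The breakdown enzyme that did change was Aoc1, diamine oxidase, which oxidises putrescine and histamine and is abundant in intestinal epithelium. It was at 10.74, 10.93, 10.85 and 10.78 in wild type and at 9.76, 9.88, 9.81 and 9.69 in the knockout. No sample came near the other group, and Aoc1 fell by 1.04 (SE 0.06, adjusted p = 1.05e-06), or 2.06-fold. Smox, spermine oxidase, was at 6.50 ± 0.12 and 6.65 ± 0.19 (95% interval of the difference -0.05 to 0.36, adjusted p = 0.244), and passed with the hybridization controls as a covariate (0.27, adjusted p = 0.0412). Of the antizymes Oaz2 and Oaz3 and the antizyme inhibitors Azin1 and Azin2, 0 passed, where 30.0% of all genes did. Azin1, which frees ornithine decarboxylase from antizyme, was at 9.96 to 10.04 and 9.92 to 10.05 (adjusted p = 0.925), while a dimmer Azin1 probe set rose from 9.28 to 9.51 (0.23, adjusted p = 0.0374).

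**Figure D2:**
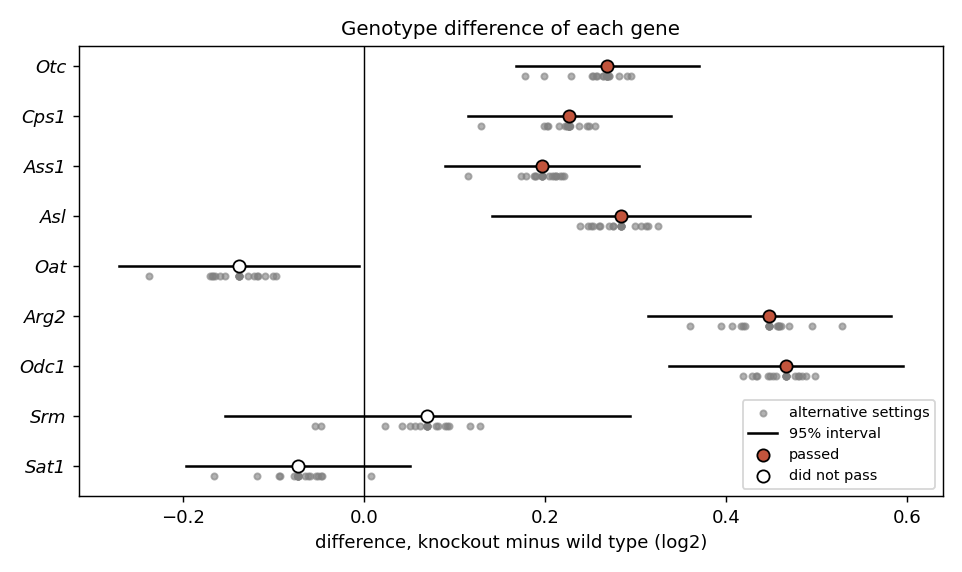
Difference between genotypes (knockout minus wild type, log2, horizontal axis) for each of the 9 genes, with its 95% interval as a line and the values under the alternative settings as grey points below it. Filled circles passed and open circles did not; Odc1 at 0.47 and Arg2 at 0.45 lie farthest to the right, and Oat at -0.14 lies on the other side of 0.

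Promoter sequence was at hand for Odc1, Sat1, Oat, Otc and Ass1 of the 9 genes (RefSeq, GRCm38.p6). The first 3 are shown because these genes open polyamine synthesis (Odc1), polyamine breakdown (Sat1) and the route to ornithine (Oat), and of them Odc1 passed and the others did not. Each run is the 250 bases before the gene's start, 5′ to 3′ along the gene, and capitals mark matches on either strand to a GC box (GGGCGG) or a CCAAT box (CCAAT), the kinds of motif found in these 3 windows.
Odc1, chr12:17544623-17544872, plus strand: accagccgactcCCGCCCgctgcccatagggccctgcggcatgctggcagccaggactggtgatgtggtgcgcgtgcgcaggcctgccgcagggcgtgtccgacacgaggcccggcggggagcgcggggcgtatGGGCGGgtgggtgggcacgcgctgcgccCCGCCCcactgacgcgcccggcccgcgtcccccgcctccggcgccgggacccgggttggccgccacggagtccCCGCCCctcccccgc
Sat1, chrX:155216450-155216699, minus strand: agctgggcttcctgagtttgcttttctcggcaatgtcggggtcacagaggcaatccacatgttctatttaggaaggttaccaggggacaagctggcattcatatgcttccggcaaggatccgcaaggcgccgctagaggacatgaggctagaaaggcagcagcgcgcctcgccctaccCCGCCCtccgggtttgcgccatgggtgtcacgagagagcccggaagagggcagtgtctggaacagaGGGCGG
Oat, chr7:132576399-132576648, minus strand: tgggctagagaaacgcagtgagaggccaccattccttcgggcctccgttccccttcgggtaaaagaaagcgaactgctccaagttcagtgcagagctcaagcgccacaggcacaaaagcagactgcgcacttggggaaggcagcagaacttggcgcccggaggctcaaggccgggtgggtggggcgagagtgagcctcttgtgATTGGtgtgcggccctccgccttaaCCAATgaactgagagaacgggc
The Odc1 window held 4 GC boxes, the first base of each at -238, -116, -88 and -15 from the start. Sat1 held 2, at -72 and -6, and Oat held none but had 2 CCAAT boxes, at -47 and -22. Both strands were searched, and motifs were allowed to overlap. Of all 32851 promoter windows of this length, 32.7% hold a GC box and 33.8% a CCAAT box. GC boxes were thus present in the promoter of a gene that rose and in that of one that did not pass.

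Ass1 held 1 GC box at -63 and 1 E-box (CACGTG), the site read by MYC and related factors, at -36. An E-box is present in 6.02% of the windows. The Otc window held no match to any motif searched. The others searched were the core of the antioxidant response element (TGACNNNGC, in 10.2% of all windows), a core motif of nuclear receptors (AGGTCA, 14.0%), the cyclic AMP response element (TGACGTCA, 1.55%) and a TATA box (TATAAA, 12.4%). None of these 4 was matched in the windows of the 5 measured genes. A match is a run of letters, and its absence here concerns these windows only.

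Among the other 52 measured genes of these pathways, 14 rose, 7 fell and 31 did not pass, with a median difference of 0.005 against 0.01 over all genes. The share that passed, 21 of 52, can be set beside the 30.0% of all genes. With cyclic loess normalisation 13 passed as higher and 10 as lower, with no share over all genes given here for that setting. Without the 3 arrays 10 passed as higher and 7 as lower, where 20.4% of all genes passed, 12.2% as higher.

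The 3 measured genes of hypusine formation, the modification for which spermidine is the donor, all rose, where 17.1% of all genes did. Eif5a, the translation factor that carries hypusine, was at 11.24, 11.19, 11.13 and 11.27 in wild type and at 11.71, 11.66, 11.73 and 11.86 in the knockout, a rise of 0.53 (SE 0.06, adjusted p = 4.35e-05). Its probe set identifier marks possible binding to related transcripts. Dohh and Dhps, which carry out the modification in the order Dhps then Dohh, rose by 0.35 (SE 0.04, adjusted p = 0.000161) and 0.25 (SE 0.05, adjusted p = 0.00401). The Dhps call was lost without the 3 arrays (adjusted p = 0.0629).

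Of 8 measured genes that supply or salvage methionine and S-adenosylmethionine, 4 rose, 0 fell and 4 did not pass. Over all genes 17.1% were higher and 12.9% lower. Ahcy, which removes S-adenosylhomocysteine, was at 9.69, 9.75, 9.81 and 9.78 in wild type and at 10.41, 10.49, 10.53 and 10.45 in the knockout. The groups were far apart relative to their spread, and Ahcy rose by 0.71 (SE 0.05, adjusted p = 3.23e-06), or 1.64-fold. Mri1, Apip and Enoph1, successive enzymes that return the methylthioadenosine left by polyamine synthesis to methionine, rose by 0.41, 0.40 and 0.23. Enoph1 (adjusted p = 0.0158) no longer passed once wild type replicate 3 was left out (adjusted p = 0.0505), nor without the 3 arrays (adjusted p = 0.0731).

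Of 12 measured carriers of cationic amino acids or polyamines, at the cell surface or inside the cell, 1 rose, 4 fell and 7 did not pass, where 17.1% of all genes were higher and 12.9% lower. Slc7a9 and Slc3a1, the subunits of the brush border carrier for arginine, lysine, ornithine and cystine, fell by 0.44 (SE 0.05, adjusted p = 0.000141) and 0.60 (SE 0.07, adjusted p = 0.000131). Slc3a2, the heavy chain of the basolateral carriers, was at 9.28, 9.21, 9.12 and 9.08 in wild type and at 8.72, 8.70, 8.70 and 8.70 in the knockout and fell by 0.47 (SE 0.05). Its partner Slc7a7 was at 9.77 and 9.67 and did not pass (adjusted p = 0.220).

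Slc6a14, a sodium- and chloride-coupled carrier of neutral and cationic amino acids, had the largest difference of the 61 genes. It was at 8.13, 7.18, 6.87 and 7.64 in wild type and at 5.91, 5.39, 4.78 and 5.36 in the knockout, so both groups were widely spread but did not meet. It fell by 2.10 (SE 0.27, adjusted p = 0.000186), or 4.28-fold, and a second probe set fell by 1.15. Atp13a3, a P-type ATPase of polyamine uptake, was the carrier that rose (0.37, SE 0.05, adjusted p = 0.000399). Slc7a1, the general cationic amino acid carrier, was at 8.74 ± 0.09 and 8.74 ± 0.14.

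**Figure D3:**
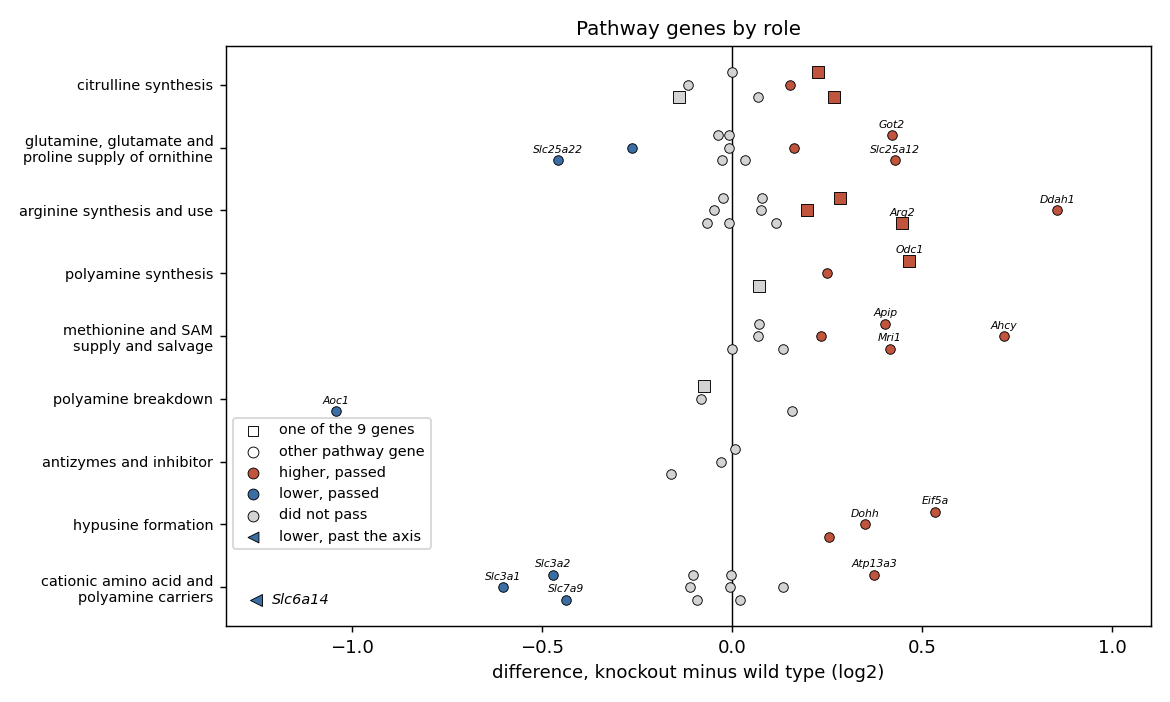
Difference between genotypes (knockout minus wild type, log2, horizontal axis) of the 61 measured pathway genes, arranged by role, with squares for the 9 genes and circles for the others. Red passed as higher, blue as lower and grey did not pass; the 3 hypusine genes lie to the right of 0, and Slc6a14, at -2.10, lies past the left end of the axis.

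**Figure D4:**
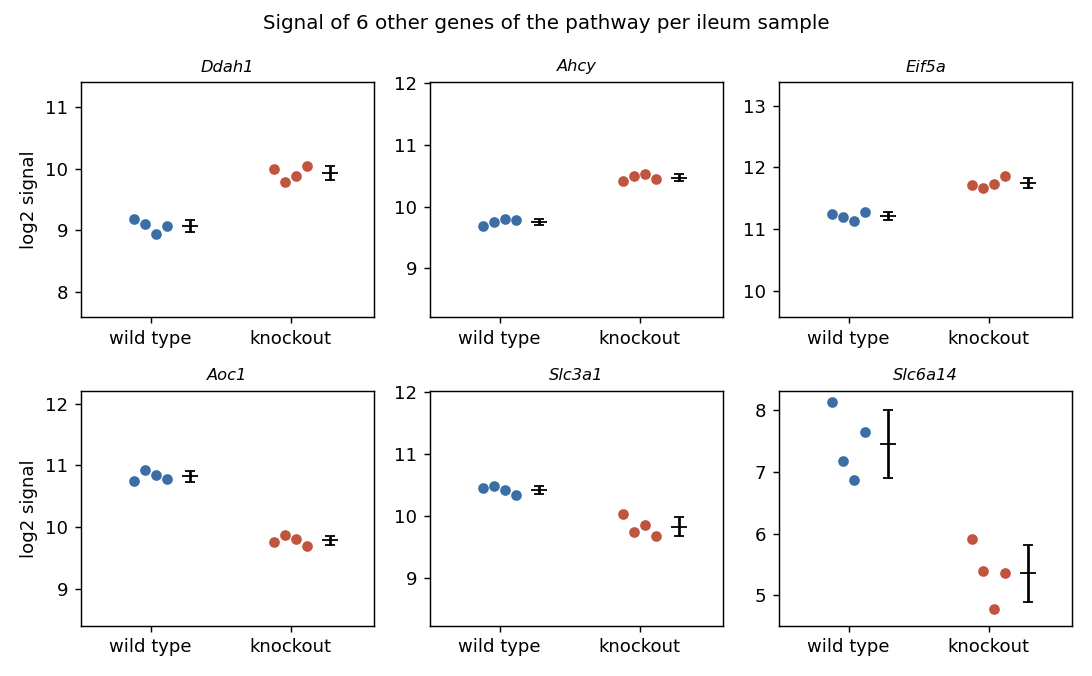
Log2 signal (vertical axis, with the same span of 3.8 in every panel) of 6 other pathway genes chosen after their values were seen, in the 4 wild type (blue) and 4 knockout (red) samples, with points for samples and bars for the group mean ± SD. The groups are apart in every panel: Ddah1, Ahcy and Eif5a are higher in the knockout and Aoc1, Slc3a1 and Slc6a14 lower.

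Markers of several cell types moved between the same samples, where 17.1% of all genes were higher and 12.9% lower. In whole tissue, fewer cells of a type and less RNA per cell cannot be told apart. Of 9 proliferation markers of the crypt, 9 rose and 0 fell, with a median difference of 0.46 and a summed linear signal of 4196 to 4552 in wild type and 5478 to 6227 in the knockout. Of 11 markers of the mature enterocyte, 0 rose and 10 fell (median -0.50, summed signal 28749 to 31768 against 21278 to 23090). Otc and Cps1 were higher, and Slc7a9 and Slc3a1 lower, in samples in which enterocyte markers were lower and crypt markers higher. Which cells held these transcripts was not measured.

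Of 10 smooth muscle markers 10 fell (median -0.93, summed signal 9220 to 12204 against 5558 to 6544), where 17.1% of all genes were higher and 12.9% lower. Of 9 T lymphocyte markers 9 fell (median -0.97, 2857 to 3572 against 588 to 849). Of 10 macrophage and dendritic cell markers, 1 rose, 5 fell and 4 did not pass (13184 to 13884 against 10566 to 11686). Among 6 endothelial markers, 0 rose and 2 fell, and 5 were dim (186 to 208 against 162 to 176). Of 7 measured ileal markers, 1 rose and 3 fell (23108 to 24221 against 21945 to 23188). The falls were those of Slc10a2, Slc51b and Vil1, and Vil1 is also counted among the mature enterocyte markers. The part of these cell types in the 6 rises was not tested.

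Otc, Cps1 and Arg1 are also genes of the liver. Of 8 hepatocyte markers, Ttr rose by 1.20, Tat fell by 0.53 and 6 did not pass, where 30.0% of all genes passed. Their summed signals were 296 to 326 in wild type and 284 to 372 in the knockout. Alb, the albumin gene, was dim in both groups, at 4.21 and 4.12. The 5 measured markers of the pancreatic acinus did not pass (121 to 136 against 133 to 135). No marker reads 0 on this scale.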

How the data were processed

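Per the labels' protocols, 250 ng of total RNA from each of 8 ilea was turned into biotin-labelled cRNA with a kit that primes from the 3' end and run on 1 Affymetrix array. The authors deposited log2 signals from RMA, per the submitters' processing notes; its software, the array strips and scan dates are not given in the sources used here, so batches were not tested. RMA compresses low signals, so differences of dim genes are understated, and 4 arrays per genotype limit the precision.

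Of 45141 probe sets, 104 were controls, 28898 had 1 symbol, 551 several and 15588 none listed; 28689 matched RefSeq (GRCm38.p6) by Entrez identifier. The 1-symbol probe set with the highest mean stood for its gene, with no filter on low values. Genotypes were tested in limma 3.58.1 under R 4.3.3 (lmFit and eBayes, 2-sided), with Benjamini-Hochberg adjustment over 17097 genes or, for other probe sets of a gene, 45037 probe sets. On simulated data for this comparison of 17097 genes, 34% of genes changed by 0.25 were recovered, 84% at 0.5, 98% at 1 and 100% at 2, with 4 false calls. Only 50 genes were changed at each size, far fewer than passed in the data. The adjustment was therefore stricter there, and recovery in the data can differ.

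The 10 genes and all lists were chosen with earlier results of these data known. Named were the 10, fixed pathway genes (Arg1, Nos2, Aldh18a1, Nags, Slc25a15, Amd1, Sms, Smox, Azin1 and Slc7a1; 1 more is not reported here) and pathway genes that passed, up to 20; Slc7a7 and single markers were chosen after their values were seen. Of 66 other pathway genes listed, 52 had a single-symbol probe set.

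The counts, the 9 genes with their second probe sets, and the named pathway genes were recomputed with other normalisations (quantile, median centring, cyclic loess), without dim genes, on averaged or all probe sets (not for second probe sets), with a trended robust prior, array weights, no moderation or a replicate block, and leaving out each array. Other probe sets of pathway genes, Slc7a7 and single markers were not recomputed. Leaving out the 3 arrays with low hybridization controls, and those controls as a covariate, were added after seeing the data. Figures were drawn with matplotlib 3.10.9.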

Additional observations from a re-analysis of the deposited data

Results flagged for a closer look

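In 4 of the 78 groups of 4 samples checked, 1 sample lay far from the other 3 relative to the range of the group, and chance does this in about 1 group in 20. Arg2 in knockout replicate 2 was 10.17, above the other knockout samples at 10.04 to 10.05. Odc1 in knockout replicate 4 was 7.64, against 7.48 to 7.50 in the others. Apip in knockout replicate 3 was 6.60, against 6.36 to 6.38, and Gpt2 in wild type replicate 4 was 5.75, against 5.89 to 5.90. Arg2, Odc1 and Apip passed without that sample, and Gpt2 did not, as given above.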

How the results depend on the processing

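Of 179 values of the 9 genes under alternatives, 169 kept their direction and their side of the threshold. Calls were lost for Cps1 with cyclic loess (0.13) and, without the 3 arrays of low hybridization controls, for Cps1 (0.22), Asl (0.25) and Ass1 (0.22). Calls were gained, all lower, for Oat (-0.24) and Sat1 (-0.17) with cyclic loess and for Oat with the trended and robust prior (-0.14). Sat1 (0.00741) and Srm (-0.0543) changed sign without the 3 arrays, and Srm did on leaving out 1 array, with a range of -0.0473 to 0.13. Cyclic loess gave 2 lower genes of the 9 and 1 lower probe set of the 11, and the trended and robust prior 1 lower gene; 3 genes and 3 probe sets passed without the 3 arrays, all higher. Over all genes 5134 passed, 2924 higher and 2210 lower, against 9729 (5312 and 4417) with all 45037 probe sets fitted together; without the 3 arrays 1414 were lower, and 6 rather than 12 markers higher. Of 559 values of the other named genes, 510 kept direction and side; those that changed sign did not pass in either setting. These were Azin1 with quantile normalisation (-0.0484), cyclic loess (-0.0803) and without the 3 arrays (-0.0167), and Nos2 with quantile (0.0248), median centring (0.0151), cyclic loess (0.0134) and array weights (0.00175). Slc7a1 did so with median centring (0.0198) and Slc25a15 with the mean of its probe sets (0.0936). The second Ass1 probe set, which is not among the 559 values, did so with the covariate (-0.00629). On leaving out 1 array, ranges that crossed 0 were those of Aldh18a1 (-0.0169 to 0.153), Azin1 (-0.00573 to 0.0372), Nos2 (-0.0621 to 0.0475), Slc7a1 (-0.0638 to 0.0507) and the second Ass1 probe set (-0.00293 to 0.0615). The cause of these changes was not tested. Same-numbered samples of the genotypes were not treated as pairs in the main fit. The correlations of their deviations were 0.22, -0.05, 0.11 and 0.16, against -0.16 to 0.18 for samples of different number. Not every sample correlated best with its own number, and these values do not settle whether a shared number marks a shared batch. With the replicate block 5190 genes and 6 of the 9 passed. Ass1, Arg1 and the second Otc probe set have no value with the filter on dim genes, and the low signal of Ass1 limits what its difference shows.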
